A study of Homo sapiens with 6 samples.

Results

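Small nucleolar RNA host genes were compared between RKO cells with lowered TRIM21 and their controls. They were taken by symbol, as every row named SNHG followed by digits, plus GAS5, ZFAS1 and EPB41L4A-AS1, which gave 31 of 28278 rows. Of these, 28 were tested. SNHG14, SNHG18 and SNHG27 were listed at 0 in all 6 libraries and could not be.

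RKO is a widely used human colon carcinoma line, poorly differentiated per the labels. Cells of both groups had been infected with a lentivirus carrying a hairpin and then selected with puromycin, so the controls, whose genotype is given as WT, are infected and selected too. A source label naming mouse tissue goes against the organism, cell line and gene symbols, which are all human. The 3 shTRIM21 libraries carry a hairpin against TRIM21 and the 3 shControl libraries a scrambled one. TRIM21 is a ubiquitin ligase that also binds antibodies inside cells. Its transcript had 299, 271 and 297 counts in shTRIM21 and 459, 421 and 343 in shControl (log2 fold change -0.54, SE 0.12, edgeR adjusted p = 0.00424; with library sizes alone -0.34 and adjusted p = 0.197). The labels call the libraries biological replicates, but name neither the number of hairpins per group nor separate infections, so p-values measure the spread between these libraries, which may be in part technical.

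Small nucleolar RNAs (snoRNAs) are short RNAs that guide chemical changes of other RNAs, chiefly of ribosomal RNA: those of the box C/D kind guide methylation of ribose, and those of the box H/ACA kind the conversion of uridine to pseudouridine. A related kind works in Cajal bodies on the RNAs of the spliceosome. In human cells most are cut from introns. A host gene is transcribed and spliced like any other gene, and its introns give the snoRNAs. For many of the genes described here the spliced exons are held to carry no long open reading frame, which was not checked. Many host gene transcripts begin, like those of ribosomal proteins, with a run of pyrimidines (a 5' terminal oligopyrimidine tract), and several are known to be broken down by nonsense-mediated decay once ribosomes meet them.

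The sequences that matter for these genes are the start of the transcript and the snoRNAs in its introns. In RefSeq (GRCh38.p14), 27 of the 31 genes had a start. Of these, 7 (25.9%) began with a C followed by at least 4 more pyrimidines (C or T). The share was 4.07% of all 35116 promoters listed there and 57.0% of those of genes with cytosolic ribosomal protein symbols. Among genes tested here it was 25.0% of 24 host genes, beside 5.09% of 16278 promoters. SNHG1, whose first run stops after 3 bases, is shown beside the 6 tested genes that had such a tract, each from 6 bases before its start to 24 after, 5′ to 3′, with the tract in capitals. The listed starts are those of 1 annotated transcript each, and cells can use others. The windows are SNHG12 at chr1:28581850-28581879 (minus strand), SNHG4 at chr5:139274095-139274124 (plus strand), SNHG19 at chr16:2155335-2155364 (minus strand), SNHG32 at chr6:31834910-31834939 (plus strand), SNHG5 at chr6:85678710-85678739 (minus strand), ZFAS1 at chr20:49278636-49278665 (plus strand) and SNHG1 at chr11:62855862-62855891 (minus strand).
SNHG12: cagcgcCCTTTCTCCCCgccgcattcccgg
SNHG4: cggctgCCCTTTCCCCTCCggcctctgccg
SNHG19: ccctgtCTTTTCggggtcgagtccgagggg
SNHG32: ttagttCTTTTTgcgaagtgggctcgtggg
SNHG5: ttcggtCTTTTacgtcggccttcgcgagcg
ZFAS1: ttcgttCTTTCgcgtctgcggtgcccggag
SNHG1: ttcgttctcatttttctactgctcgtggta

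SNHG1, the gene on which the results below turn, holds 8 box C/D snoRNAs. GENCODE release 29 held no sequence named SNORD29 or SNORD31, so these were not searched. Of the others, 3 examples are printed, chosen for an exact box C (TGATGA) and box D (CTGA), shown in capitals near the ends. They lie at chr11:62855564-62855632 (SNORD25), chr11:62855012-62855083 (SNORD27), chr11:62853663-62853732 (SNORD30) on the minus strand (GRCh38).
SNORD25: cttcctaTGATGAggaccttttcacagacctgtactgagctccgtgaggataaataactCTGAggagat
SNORD27: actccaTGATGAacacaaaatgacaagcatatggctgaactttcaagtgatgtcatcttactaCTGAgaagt
SNORD30: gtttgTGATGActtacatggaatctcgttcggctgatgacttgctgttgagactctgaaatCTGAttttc

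Libraries held 33499827 to 44466137 counts, and 27808151 to 29100459 without ribosomal RNA rows. Those rows took 16.99% to 23.5% of counts in shTRIM21, and 31.0%, 14.7% and 36.9% in shControl replicates 1, 2 and 3. Levels are given as CPM (reads scaled to a common depth) on library sizes scaled by TMM, with SDs over 3 libraries, and a gene is called where its Benjamini-Hochberg adjusted p in edgeR's quasi-likelihood test, over all 15131 genes tested, is under 0.05. The epithelial markers EPCAM, KRT8, KRT18, KRT19 and CDH1 summed to 174268 to 186378 counts in shTRIM21 libraries and 224068 to 242658 in shControl, KRT8, KRT18 and KRT19 being called lower and CDH1 higher; their part in the results below was not tested. The 4 blood markers summed to at most 3 counts and 3 endothelial markers to 10 to 27. Of 4 intestinal markers, CDX2 and VIL1 were present, CDX1 was listed at 0 and CDH17 had at most 2 counts in a library; COL1A1 gave nearly all of the 222 to 400 counts of 4 fibroblast markers.

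Most host genes differed little between the groups. Of the 28 tested, 1 rose and 0 fell, so 3.57% were called where 20.8% of all tested genes were, 9.77% higher and 11.0% lower. Their median log2 fold change was 0.046, beside 0.0054 over all tested genes, with 17 values above 0 and 11 below. In bulk RNA, fewer cells of a kind and less RNA per cell cannot be told apart. Where the mean reached 10 CPM or more, 1 of 14 host genes was called, beside 25.4% of all genes at such levels. At an unadjusted p under 0.05 the count was 6 of 28 (21.4%, against 34.1% of all tested genes), 4 higher and 2 lower. For 6 host genes (21.4%, beside 37.7% of all tested genes) the groups were fully apart, with all 3 libraries of one above all 3 of the other.

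The precision differed with the level. Standard errors of the log2 fold change ran from 0.050 to 0.16 over the 14 genes at 10 CPM or more, and from 0.10 to 0.60 over the 14 below it. For 19 of the 28 the 95% interval lay within a 1.5-fold change in both directions. For the other 9 it reached past that: SNHG9, SNHG11, SNHG19, SNHG21, SNHG22, SNHG25, SNHG26, SNHG28 and SNHG31, all under 10 CPM, for which these data do not exclude a change of that size.

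**Figure D1:**
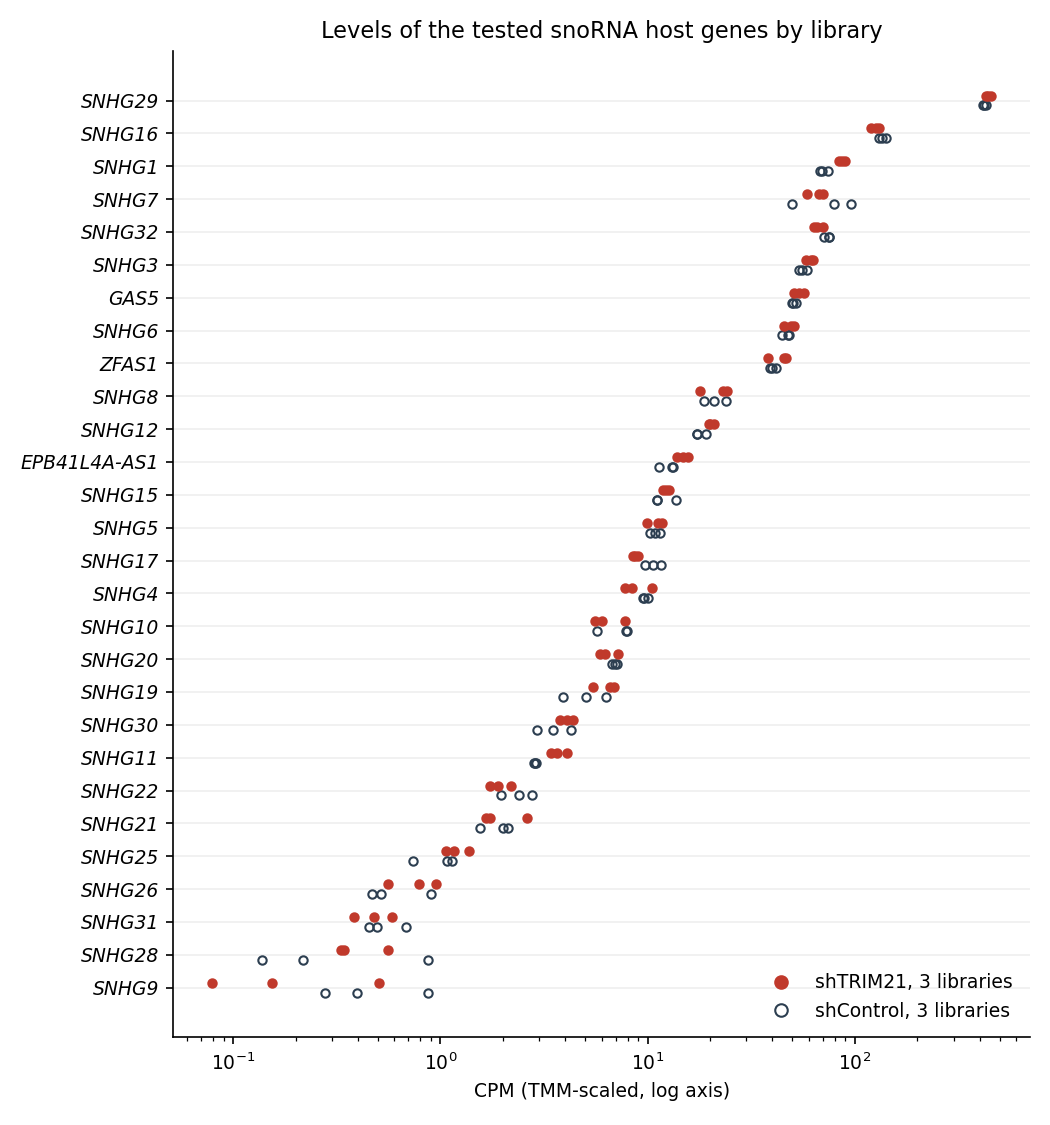
Levels of the 28 tested host genes, 1 row per gene, as TMM-scaled CPM on a log axis. Filled points are the 3 shTRIM21 libraries and open points the 3 shControl libraries. SNHG29 stands at 417 to 454 CPM, and in most rows the points of both groups overlap.

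The host gene called was SNHG1, which carries snoRNAs in its introns. SNHG1 (chromosome 11 at 62851978 to 62855885, minus strand, GRCh38.p14) stood at 87.1, 83.9 and 89.5 CPM in shTRIM21 and at 67.9, 69.2 and 74.1 CPM in shControl. Every shTRIM21 library lay above every shControl library. The means were 86.8 ± 2.82 and 70.4 ± 3.25 CPM (SD, n = 3 each), 1.23-fold higher in shTRIM21, with a log2 fold change of 0.30 (SE 0.057, 95% interval 0.18 to 0.43, edgeR adjusted p = 0.0017). SNHG1 was called under all 15 alternatives run, with adjusted p-values from 3.1e-05 to 0.022. Its log2 fold change lay between 0.28 and 0.34 under all of them but 1: with library sizes alone it was 0.52, where the median of all tested genes was 0.22. Across the table, 768 genes had a smaller p-value.

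The nearest protein-coding gene went the other way. SLC3A2 encodes the heavy chain of the CD98 amino acid transporters and is known to be induced when amino acids are short. It starts 224 bases upstream of SNHG1 on the opposite strand, so both are read outward from 1 short region, and the annotated genes do not overlap. SLC3A2 stood at 209, 226 and 206 CPM in shTRIM21 and at 263, 274 and 307 CPM in shControl, again with no overlap between groups. Its means of 214 ± 10.5 and 282 ± 23.0 CPM (SD, n = 3 each) gave a log2 fold change of -0.40 (SE 0.062, edgeR adjusted p = 0.000418). With library sizes alone SLC3A2 was at -0.18 and not called (edgeR adjusted p = 0.48, the highest over its alternatives, the lowest being 3.3e-08).

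The region between the starts is shown because the pair diverges from it. It is printed with the first bases of both genes, as the window chr11:62855836-62856129 (GRCh38.p14, RefSeq). The strand is that of SNHG1, so SNHG1 runs to the right from the capitals near the end. SLC3A2 runs to the left from the capitals near the beginning. Capitals mark the first 5 bases of each transcript.
SNHG1 and SLC3A2: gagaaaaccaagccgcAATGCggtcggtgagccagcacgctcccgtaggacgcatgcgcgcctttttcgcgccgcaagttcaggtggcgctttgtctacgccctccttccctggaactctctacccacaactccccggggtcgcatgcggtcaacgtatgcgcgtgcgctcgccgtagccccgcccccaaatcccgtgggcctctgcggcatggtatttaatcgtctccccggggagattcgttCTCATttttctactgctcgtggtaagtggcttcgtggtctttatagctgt

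The ratio of the counts of these genes needs no scaling between libraries. SNHG1 over SLC3A2 was 0.417, 0.372 and 0.434 in shTRIM21 and 0.258, 0.252 and 0.241 in shControl. All 3 shTRIM21 ratios exceeded all 3 shControl ratios. The ratio was 1.62-fold higher in shTRIM21, and a two-sided exact permutation test over the libraries gave p = 0.1, the smallest value that 3 against 3 can give. This ratio was chosen after the values of both genes were seen. Both were already fully apart between the groups, in opposite directions, so the ratio had to separate. The permutation test could give no other p-value, and it decides nothing beyond the values of the genes themselves.

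**Figure D2:**
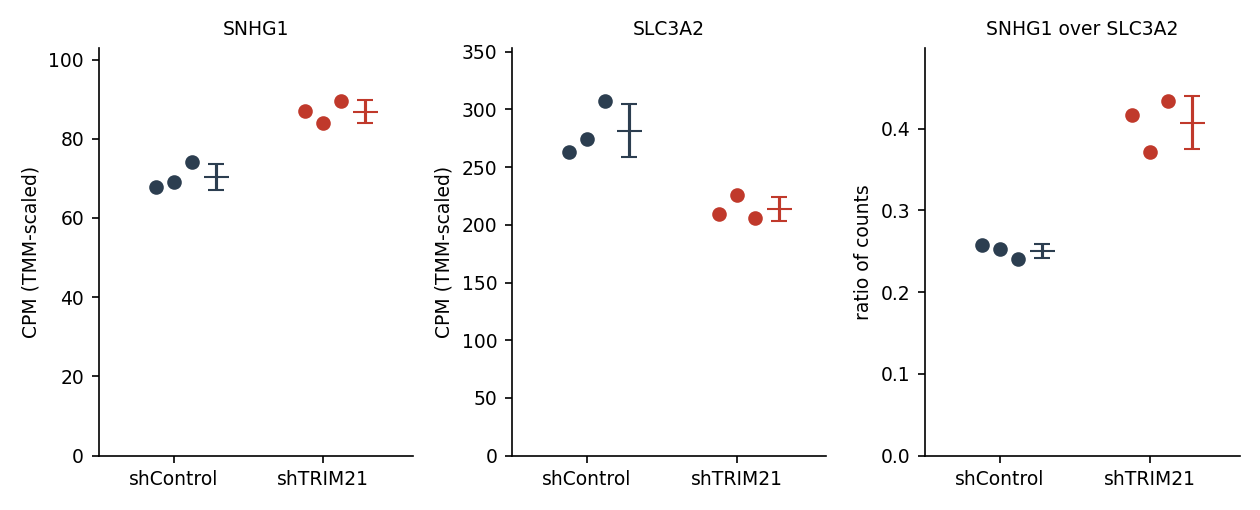
SNHG1 and SLC3A2 in TMM-scaled CPM, and the ratio of their counts, by group, with each axis starting at 0. Points are libraries, and the bars beside them are the mean and SD (n = 3). SNHG1 is higher (86.8 against 70.4 CPM) and SLC3A2 lower (214 against 282 CPM) in shTRIM21.

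By the kind of snoRNA that RefSeq places in them, 14 of the genes host mainly box C/D snoRNAs. Of these, 12 were tested: 10 had a log2 fold change above 0 and 2 below, with a median of 0.098 and a range of -0.15 to 0.31, and SNHG1 was the 1 called. SNHG29, the host of SNORD49A, SNORD49B and SNORD65, had the highest level per length, given below. It stood at 454, 442 and 431 CPM in shTRIM21 and at 420, 431 and 417 CPM in shControl, ranges that overlap slightly (means 442 ± 11.3 and 423 ± 7.57 CPM, SD, n = 3 each). Its log2 fold change was 0.065 (SE 0.050, edgeR adjusted p = 0.396, 95% interval -0.042 to 0.17). As CPM without ribosomal RNA rows and with no TMM factor, SNHG29 did not overlap, at 587 to 607 in shTRIM21 and 539 to 549 in shControl. On that same base all 31 genes together took 0.152 ± 0.0021% of counts in shTRIM21 and 0.142 ± 0.00145% in shControl (SD, n = 3). Libraries are scaled there by their totals alone, so a shift shared by many genes is not removed. Neither the share of all genes that did not overlap on that base nor their typical shift was computed. With those rows left out and TMM factors kept, the SNHG29 log2 fold change was 0.058 (edgeR adjusted p = 0.415). SNHG29 alone held 38.3% to 39.9% of all reads counted to the 31 genes.

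GAS5, named for its rise in growth-arrested cells and known as a decoy that binds the glucocorticoid receptor, carries 10 box C/D snoRNAs. GAS5 stood at 56.7, 54.1 and 51.1 CPM in shTRIM21 and at 49.8, 50.1 and 52.1 CPM in shControl. The groups overlapped, since shTRIM21 replicate 3 lay below shControl replicate 3. As CPM without ribosomal RNA rows and with no TMM factor, GAS5 did not overlap, at 69.6 to 75.8 in shTRIM21 and 63.9 to 67.3 in shControl. As for SNHG29, that base keeps any shift shared by many genes, and the share of all genes apart on it was not computed. With those rows left out and TMM factors kept, its log2 fold change was 0.084 (edgeR adjusted p = 0.371). In the main fit the GAS5 log2 fold change was 0.091 (SE 0.061, edgeR adjusted p = 0.315). Its 95% interval there, -0.038 to 0.22, left out a rise or fall of 1.5-fold. ZBTB37 overlaps GAS5 on the opposite strand, and reads may be shared.

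ZFAS1, which starts 585 bases from ZNFX1 on the opposite strand and hosts SNORD12, SNORD12B and SNORD12C, had 45.5, 46.4 and 38.0 CPM in shTRIM21 and 39.8, 41.8 and 39.0 CPM in shControl. Replicate 3 of shTRIM21 lay below all controls and the other 2 above them (log2 fold change 0.11, SE 0.076, edgeR adjusted p = 0.356). SNHG16, host of the SNORD1 family, stood at 125 ± 5.28 CPM in shTRIM21 and 135 ± 5.33 CPM in shControl (SD, n = 3), with a log2 fold change of -0.11 (SE 0.054, edgeR adjusted p = 0.161). SNHG32, which hosts SNORD48 and SNORD52, stood at 63.9, 65.5 and 70.2 CPM against 75.2, 75.5 and 70.7 CPM, lower in shTRIM21 in every library but by a narrow gap. Its log2 fold change of -0.15 (SE 0.059) missed the threshold (edgeR adjusted p = 0.0856), and passed it without shTRIM21 replicate 3 (adjusted p = 0.0485; over all its alternatives 0.0485 to 0.834).

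SNHG6, host of SNORD87, was at 48.5 ± 2.73 and 46.9 ± 1.99 CPM (SD, n = 3), a log2 fold change of 0.051 (SE 0.064). SNHG5, host of SNORD50A and SNORD50B, had 0.011 (SE 0.10). SNHG19, host of SNORD60, had 6.61, 6.92 and 5.44 CPM in shTRIM21 and 5.03, 3.92 and 6.32 CPM in shControl, overlapping, with a log2 fold change of 0.31 (SE 0.17, edgeR adjusted p = 0.2). SNHG19 was called with library sizes alone (0.55, edgeR adjusted p = 0.0437) and with shControl replicates 1 and 3 left out (0.68, edgeR adjusted p = 0.0495), and over all its alternatives the p-value ran from 0.0437 to 0.542. SNHG25, SNHG26 and SNHG30 had log2 fold changes of 0.29 (SE 0.29), 0.28 (SE 0.37) and 0.19 (SE 0.17), none called.

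Of the 11 genes that host mainly box H/ACA snoRNAs all were tested and 0 called, 6 with values above 0 and 5 below, and a median log2 fold change of 0.038. EPB41L4A-AS1, which hosts SNORA13 and overlaps EPB41L4A on the opposite strand, had 15.8, 14.8 and 13.8 CPM in shTRIM21 and 13.2, 11.3 and 13.2 CPM in shControl. All shTRIM21 libraries were above all shControl libraries, yet the log2 fold change of 0.23 (SE 0.096) missed the threshold (edgeR adjusted p = 0.1). SNHG12, with SNORA16A, SNORA44, SNORA61 and SNORD99 in its introns, was at 19.8, 20.1 and 21.0 CPM in shTRIM21 against 17.4, 17.2 and 19.1 CPM in shControl. It too did not overlap and was not called (log2 fold change 0.18, SE 0.080, edgeR adjusted p = 0.123). SNHG11, host of SNORA60 and SNORA71E, had 3.65, 4.08 and 3.43 CPM against 2.86, 2.88 and 2.84 CPM, the highest log2 fold change of all the host genes at 0.38 (SE 0.16), on 103 to 160 counts per library, and was not called (edgeR adjusted p = 0.111).

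SNHG17, the host of 4 snoRNAs of the SNORA71 family, was the gene nearest to a called fall. Its levels were 8.98, 8.71 and 8.48 CPM in shTRIM21 and 10.6, 9.69 and 11.6 CPM in shControl, with every shTRIM21 library lower. The log2 fold change was -0.29 (SE 0.10, edgeR adjusted p = 0.063). It passed the threshold without shControl replicate 2 (-0.35, adjusted p = 0.039) and was at -0.062 with library sizes alone (adjusted p = 0.841, the highest of its alternatives).

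SNHG7, host of SNORA17A and SNORA17B, varied most among the 14 genes at 10 CPM or more. It stood at 58.9, 70.3 and 66.9 CPM in shTRIM21 and at 79.5, 96.3 and 49.7 CPM in shControl. The controls ran from below to above all shTRIM21 libraries, with shControl replicate 3, the library with the largest share of ribosomal RNA, at the low end. The SNHG7 log2 fold change was -0.20 (SE 0.16, edgeR adjusted p = 0.396). Without shControl replicate 3 it was -0.43 and called (edgeR adjusted p = 0.00532), without replicate 2 it was 0.015 (adjusted p = 0.959, the highest of its alternatives), and with shControl replicates 1 and 3 left out it was -0.57 (adjusted p = 0.00369, the lowest). Its part in this spread was not tested.

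SNHG3, the host of SNORA73A and SNORA73B, stood at 60.8 ± 2.38 and 56.3 ± 2.47 CPM (SD, n = 3), a log2 fold change of 0.11 (SE 0.060, edgeR adjusted p = 0.201). It overlaps RCC1 on the same strand. SNHG8 and SNHG15, hosts of SNORA24 and SNORA9, were at 0.038 (SE 0.11) and 0.041 (SE 0.10). SNHG4, host of SNORA74A and SNORA74D, shares its annotated start with MATR3 and had -0.13 (SE 0.12). SNHG9, host of SNORA78, had 19, 6 and 3 counts in shTRIM21 and 15, 32 and 10 in shControl, and its log2 fold change of -1.06 (SE 0.60, 95% interval -2.33 to 0.21) has an interval that spans 0. SNHG31, with SNORA70I, had 15 to 25 counts per library and a log2 fold change of -0.17 (SE 0.37).

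The 4 hosts of small Cajal body RNAs, SNHG10 (SCARNA13), SNHG20 (SCARNA16), SNHG21 (SCARNA15) and SNHG22 (SCARNA17), had log2 fold changes of -0.15 (SE 0.16), -0.11 (SE 0.12), 0.086 (SE 0.25) and -0.29 (SE 0.22). None was called, and the groups overlapped for each. SNHG28, in which RefSeq places no snoRNA with a SNORD, SNORA or SCARNA name, had 5 to 33 counts per library and a log2 fold change of -0.0069 (SE 0.56).

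**Figure D3:**
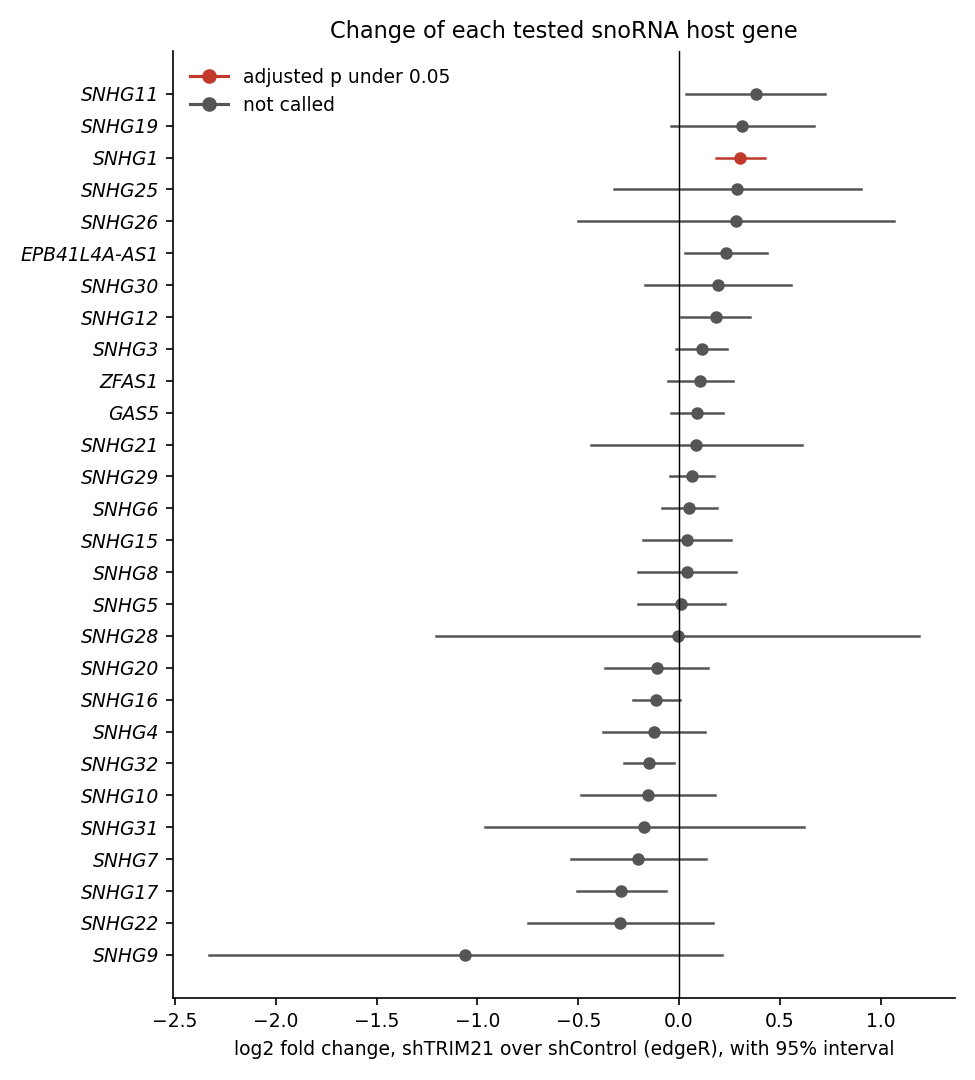
Log2 fold change of each tested host gene, shTRIM21 over shControl, from edgeR. Points are estimates and lines 95% intervals. SNHG1 (0.30) is the gene whose adjusted p is under 0.05, and the interval of SNHG9 is the widest.

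Per length, using the exons of the basic GENCODE release 29 set as the length, SNHG29 had the highest mean level in shControl at 179 CPM per kilobase, followed by SNHG32 at 98.6, SNHG6 at 48.2, SNHG1 at 44.5 and SNHG16 at 37.5 CPM per kilobase. In shTRIM21 the means were 187, 88.9, 49.9, 54.9 and 34.7 CPM per kilobase, so SNHG1 and SNHG6 changed places. This order was not tested, and the exon set may differ from the gene models the reads were counted on.

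The pyrimidine starts printed above were set beside the changes. The 6 tested genes with such a tract had a median log2 fold change of 0.058, from -0.15 to 0.31, with 0 called. The 18 tested genes with an annotated start and no tract found there had a median of 0.051, from -0.29 to 0.38, with 1 called, SNHG1. No test was made of this difference. The same rule found a tract in 57.0% of promoters of genes with ribosomal protein symbols, so it can miss tracts. Genes counted as without a tract may therefore have one, also from a start other than the listed one.

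The intronic RNAs were counted in rows of their own. RefSeq places 146 snoRNA and Cajal body RNA genes inside the hosts, all with a row: 86 were at 0 in every library, 28 were above 0 but too low to test, and 32 were tested. Whether the libraries kept RNA as short as a mature snoRNA is not known from the labels, and reads from the introns of the host can fall in these rows. Near-identical copies, such as those of the SNORA71 family, can also split or share reads. Of the 32, 1 rose and 0 fell (3.13%, beside 20.8% of all tested genes). Their median log2 fold change was 0.14, with 25 values above 0 and 7 below, beside 7705 above and 7426 below over all tested genes. Of the 32 rows, 8 lie in SNHG1 and 9 in GAS5. Rows inside the same host come from its transcript, so their directions are not independent.

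The row called was SNORD31, which lies in SNHG1. It had 17, 14 and 18 counts in shTRIM21 and 4, 7 and 4 in shControl, without overlap, a log2 fold change of 1.64 (SE 0.48, edgeR adjusted p = 0.0254). The call rests on few reads: it was lost in 8 of the 15 alternatives, with DESeq2 (adjusted p = 0.0685), with no filter on low counts and without any 1 library other than shControl replicate 2 among them, the adjusted p running from 0.0171 to 0.356. Over all 8 rows inside SNHG1, 7 had values above 0 and the median was 0.25. SNORD22 had 93, 98 and 109 counts in shTRIM21 and 75, 60 and 80 in shControl (log2 fold change 0.43, SE 0.20, edgeR adjusted p = 0.15), while SNORD27 and SNORD30, printed above, were at 0.062 (SE 0.17) and -0.16 (SE 0.22), and SNORD25 at 0.74 (SE 0.47).

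In GAS5, 9 rows were tested, 7 with values above 0, with a median of 0.21 and 0 called. SNORD77, the row with the most reads there, was at 25.6 CPM in shTRIM21 and 26.3 CPM in shControl, a log2 fold change of -0.039 (SE 0.090). SNORD47 was the highest at 0.46 (SE 0.20). SNORD60, in SNHG19, had 20, 18 and 23 counts in shTRIM21 and 12, 4 and 10 in shControl, not overlapping (log2 fold change 1.17, SE 0.45, edgeR adjusted p = 0.0761). In SNHG29, SNORD65 and SNORD49B were at 0.19 (SE 0.096) and 0.13 (SE 0.10).

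**Figure D4:**
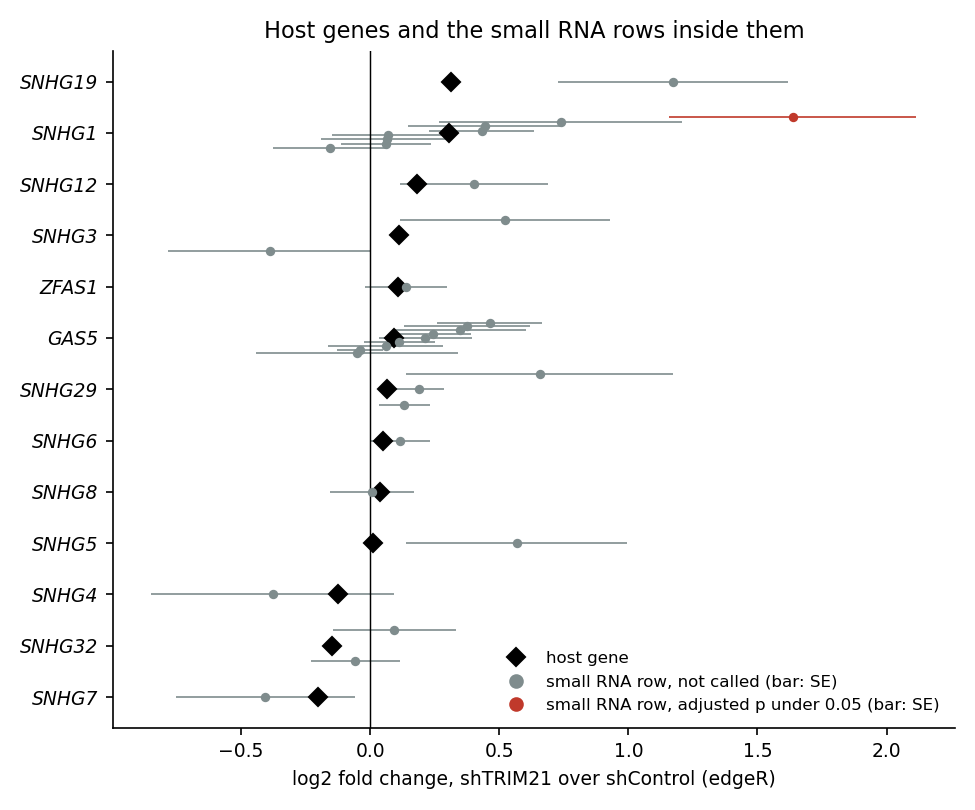
Log2 fold changes of host genes (diamonds) and of the tested small RNA rows inside them (circles, with SE), shTRIM21 over shControl. In SNHG1 and GAS5, 7 of 8 and 7 of 9 circles lie above 0, and SNORD31 in SNHG1 (1.64) is the row that was called.

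Protein-coding genes that overlap a host or start within 1000 bases of its start were read from the same test. Of 21 tested, 2 rose and 3 fell (23.8% called, beside 20.8% of all tested genes). Besides SLC3A2, ACAA2, a mitochondrial thiolase gene of fatty acid breakdown that starts 490 bases from SNHG22 on the other strand, rose from 7.13 ± 0.993 to 11.3 ± 1.07 CPM (SD, n = 3; log2 fold change 0.67, SE 0.12, edgeR adjusted p = 0.00129). MYO5B, a motor of membrane recycling that overlaps SNHG22, fell (-0.28, SE 0.059, edgeR adjusted p = 0.00429). SNHG22 itself had 82, 68 and 72 counts against 90, 102 and 71. LRRC75A, which overlaps SNHG29, rose (0.24, SE 0.078, edgeR adjusted p = 0.0425), although its groups overlapped. SEC14L1, which overlaps SNHG20 on the same strand and starts 42 bases from it, fell (-0.21, SE 0.069, edgeR adjusted p = 0.0466). MYO5B and SEC14L1 were not called with library sizes alone, where they were at -0.064 and 0.0039. LRRC75A lost its call without shTRIM21 replicate 1 or 2 or shControl replicate 1 or 2, and SEC14L1 without shTRIM21 replicate 1 or 2 or shControl replicate 2 or 3, with upper-quartile factors, and with shControl replicates 1 and 3 left out.

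The other 16 did not pass, among them ZNFX1 at 0.13 (SE 0.059) beside ZFAS1, RCC1 at 0.052 (SE 0.053) beside SNHG3, MATR3 at 0.11 (SE 0.054) beside SNHG4, ZBTB37 at 0.069 (SE 0.092) beside GAS5, TRNAU1AP at 0.11 (SE 0.11) beside SNHG12, EPB41L4A at 0.096 (SE 0.14) beside EPB41L4A-AS1, GLRX5 at -0.057 (SE 0.055) beside SNHG10, and TRAF7 at -0.0016 (SE 0.048) beside SNHG19. The use of strand in counting is not given in the sources used here, so where genes overlap their reads cannot be told apart.

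Genes that work with the hosts were read from lists. The list of cytosolic ribosomal protein genes was taken by symbol, so it also holds paralogues such as RPL7L1. Of its 83 tested genes, 0 rose and 6 fell (7.23% called, beside 20.8% of all tested genes), with a median log2 fold change of -0.040. This direction did not hold under every setting: 5 rose and 1 fell without shTRIM21 replicate 3, 2 rose and 1 fell with upper-quartile factors, and 1 rose and 0 fell with library sizes alone. The list's medians under these settings were 0.0094, 0.0014 and 0.16. RPL7L1 and RPS9 were at -0.18 (SE 0.051) and -0.22 (SE 0.065), and neither was called with library sizes alone. Leaving out 1 library also ended calls: RPL7L1 without shTRIM21 replicate 1 or 2 or shControl replicate 2 or 3, and RPS9 without shTRIM21 replicate 2 or 3 or shControl replicate 1 or 2. Of 37 protein-coding genes known to carry snoRNAs, 1 rose and 3 fell (10.8% called, beside 20.8% of all tested genes), with a median of -0.097. The groups were fully apart for 18 of the 37 (48.6%, beside 37.7% of all tested genes). With upper-quartile factors 4 rose and 2 fell, and with library sizes alone the median was 0.11. Those that fell were ABCF1 at -0.24 (SE 0.058), UQCRC1 at -0.22 (SE 0.057) and ATP5F1B at -0.18 (SE 0.055), none called with library sizes alone. UQCRC1 and ATP5F1B also lost the call without shTRIM21 replicate 2 or 3, and ATP5F1B without shControl replicate 3. The non-coding hosts had a median of 0.046 against this -0.097, a difference that was not tested.

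Among 18 tested proteins that bind or assemble snoRNA particles, 1 rose and 3 fell (22.2% called, near the 20.8% of all tested genes), with a median log2 fold change of -0.047. Library sizes alone moved that median to 0.16. TCOF1, the treacle protein of nucleoli, and NHP2, a core protein of box H/ACA particles, fell by 0.27 (SE 0.057) and 0.25 (SE 0.074) on the log2 scale, neither called with library sizes alone, and NHP2 not without shTRIM21 replicate 2 or 3 or shControl replicate 2. SHQ1, which helps assemble box H/ACA particles, rose by 0.32 (SE 0.075), a call lost with shControl replicates 1 and 3 left out. FBL, the methyltransferase of box C/D particles, was listed at 0 in all libraries although all cells use it, so a listing at 0, as for SNHG14, SNHG18 and SNHG27, is given here only as such. Of 20 factors of nonsense-mediated decay, 1 rose and 5 fell (30.0% called, beside 20.8% of all tested genes, 11.0% lower), and their median was -0.066. Library sizes alone moved that median to 0.14. SMG5 and CASC3 fell by 0.36 (SE 0.057) and 0.20 (SE 0.052), PNRC2 rose by 0.19 (SE 0.053), and with library sizes alone 0 of the 20 were called. CASC3 also lost its call without shTRIM21 replicate 2, and PNRC2 without shTRIM21 replicate 1 or 2 or shControl replicate 3.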

How the data were processed

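Total RNA of 6 RKO libraries (3 shTRIM21, 3 shControl) was depleted of ribosomal RNA and sequenced, per the labels' protocols. The deposited values are raw counts by gene symbol in 1 table for each library. The submitters' processing notes list hg38, TopHat2, edgeR 3.38.1 and limma 3.52.2 and give none of them a role. How reads were counted, on which annotation and with which strand setting, is not given in the sources used here. Of 28278 rows, 7790 were at 0 in all libraries.

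Counts were analysed with R 4.3.3 and edgeR 4.0.16: filterByExpr (minimum count 10, minimum total 15), TMM factors, and the quasi-likelihood F test on all 6 libraries without a block, adjusted by Benjamini-Hochberg over 15131 genes. Standard errors were derived from the fold change and its F statistic, and intervals are at 95%. The script was tested on 3 simulated data sets with 200 changed genes each, fewer than were called here. It called 72 of 150 genes changed 1.3-fold and 112 of 150 changed 1.5-fold. All host genes were named, with the small RNA rows inside them, all tested neighbours, and up to 3 called genes with the smallest adjusted p per further list, of which 1 is not reported here. The genes and lists were chosen with earlier results of these data known. Alternatives were RLE and upper-quartile factors, library sizes alone, no filter, ribosomal RNA rows left out, DESeq2 1.42.0, robust empirical Bayes, a replicate block, and leaving out libraries. Positions and promoters are RefSeq's (GRCh38.p14), in which all 31 symbols matched; a gene with no promoter entry was taken to start at its RefSeq end, on GENCODE's strand; exon lengths and snoRNA sequences are from GENCODE release 29.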

Additional observations from a re-analysis of the deposited data

How the results depend on the processing

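Over all genes, 3146 were called, 47.0% of them higher in shTRIM21. With library sizes alone the count was 1969 (93.0% higher), with upper-quartile factors 62.1% were higher, with shControl replicates 1 and 3 left out the count was 1958, and leaving out 1 library gave 1844 (without shTRIM21 replicate 2) to 2592. Of the host genes 1 was called; 2 were with library sizes alone, 3 with shControl replicates 1 and 3 left out (SNHG1, SNHG7 and SNHG19), and 1 to 2 when 1 library was left out. Over the 15 alternatives, 388 of 420 host gene values kept their direction and their side of the threshold, and 26 turned, all of them of uncalled genes. With library sizes alone 7 turned: SNHG10 to 0.053, SNHG16 to 0.10, SNHG20 to 0.10, SNHG28 to 0.22, SNHG31 to 0.033, SNHG32 to 0.060 and SNHG4 to 0.088; the cause was not tested beyond the shift of 0.22 in the median of all genes there. SNHG28 was at 0.032 with upper-quartile factors, 0.19 with the replicate block and 0.90 with shControl replicates 1 and 3 left out, where SNHG21 was at -0.084. When 1 library was left out SNHG28 ran from -0.42 to 1.19, SNHG15 from -0.012 to 0.14, SNHG21 from -0.17 to 0.21, SNHG31 from -0.34 to 0.021, SNHG5 from -0.044 to 0.080, SNHG7 from -0.43 to 0.015 and SNHG8 from -0.055 to 0.16.

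TRIM21 was at -0.34 and not called with library sizes alone. There SEC14L1, RPL7L1, ATP5F1B and CASC3 turned to 0.0039, 0.026, 0.029 and 0.0084. Of the small RNA rows, 1 called, the count was 2 with library sizes alone, 0 with no filter, with DESeq2 or with shControl replicates 1 and 3 left out, and 0 to 1 when 1 library was left out. Of neighbouring genes, 5 called (2 higher, 3 lower), it was 6 with upper-quartile factors (4 higher, 2 lower), 2 with library sizes alone and 3 to 5 when 1 library was left out. Of ribosomal protein genes, 6 called, it was 3 with upper-quartile factors (2 higher, 1 lower), 1 with library sizes alone (1 higher, 0 lower), 11 with ribosomal RNA rows left out or with DESeq2, and 0 to 9 when 1 library was left out (5 higher and 1 lower without shTRIM21 replicate 3). Of protein-coding hosts, 4 called (1 higher, 3 lower; with upper-quartile factors 4 and 2), it was 0, 9, 9 and 7 with library sizes alone, ribosomal RNA rows left out, DESeq2 and robust empirical Bayes, and 1 to 5 when 1 library was left out. Of snoRNA particle proteins, 4 called, it was 1 with library sizes alone and 2 to 6 when 1 library was left out. Of decay factors, 6 called, it was 3, 0 and 2 with upper-quartile factors, library sizes alone and shControl replicates 1 and 3 left out, and 1 to 6 when 1 library was left out.

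Replicate numbers were not found to pair the libraries: deviations from the group means of same-numbered libraries correlated across genes at -0.0131, 0.0057 and -0.0798. With the replicate block 2905 genes and 1 host gene, SNHG1 (0.30), were called; among the other genes named, ATP5F1B lost its call. Where 2 controls were left out, the lone control was assumed to vary like the shTRIM21 libraries.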
